A study of Mus musculus with 28 samples.

Results

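Cell death in a dendritic cell is controlled at several points, and this report follows the messenger RNAs of 8 genes that act there: the caspases Casp1, Casp4, Casp6 and Casp8, the inflammasome adaptor Pycard (also called ASC), the Bcl2 family proteins Bid and Bax, and the XIAP-binding protein Xaf1. They were chosen by name, as rows of the deposited RNA and ribosome-footprint tables that carry one of these symbols. Of the 8 genes, 7 had a row among the 3147 genes of the RNA table, and 5 of them (Casp1, Casp6, Casp8, Pycard and Bax) also had one among the 6250 genes of the footprint table. Casp4, and the footprints of Bid and Xaf1, were not analysed here.

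Casp1 is an inflammatory caspase. Sensors such as Nlrp3 assemble with Pycard into an inflammasome that activates it, and it then cleaves the precursor of interleukin-1 beta and gasdermin D, whose pores cause pyroptosis. Casp8 starts apoptosis downstream of death receptors and holds necroptosis in check; it cleaves Bid, and truncated Bid engages Bax, which permeabilises the outer mitochondrial membrane. Casp6 is an effector caspase that cleaves nuclear lamins, and Xaf1 is an interferon-inducible protein that in human cells antagonises the caspase inhibitor XIAP.

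The cells were dendritic cells grown from bone marrow of female C57BL/6J mice with GM-CSF, and the labels name no sort. In the time course, medium-weight amino acids in the culture medium were exchanged for heavy ones at time 0. On day 9 of culture they received 100 ng/ml lipopolysaccharide (LPS), the Toll-like receptor 4 agonist, for 1, 2, 4, 6, 9 or 12 h, or a mock stimulus for the same times, or were taken at 0 h. Each of these 13 groups had 2 polyA RNA libraries, 26 in all, and a further 2 libraries held ribosome footprints of resting cells, taken with cycloheximide. Values are given as transcripts per 1000000 (TPM), a unit that corrects for gene length, so levels may be compared between genes. Each RNA column sums to 1000000 over the 3147 listed genes. An RNA level is thus a share of those genes, not of all transcripts. The tables give no read counts, so the depth behind each value is unknown. The labels do not say whether replicates 1 and 2 came from separate mice or cultures, so the p-values below measure the spread between libraries, which may be technical.

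Dendritic cell and antigen presentation genes were present in every library. The 5 of 12 listed genes with a row summed to 7443 to 21045 TPM in LPS libraries. The sums were 8986 to 18721 TPM in mock libraries and 9728 to 19866 TPM at 0 h, most of them Cd74, H2-Aa and H2-Ab1. Macrophage and monocyte genes (4 of 9 with a row) summed to 321 to 890 TPM in LPS libraries. Their sums were 272 to 822 TPM in mock libraries and 371 to 1236 TPM at 0 h. Neutrophil and granulocyte precursor genes (7 of 14 with a row, none at 0 TPM) summed to between 1165 and 8678 TPM in LPS libraries, between 2492 and 11097 TPM in mock libraries and between 3173 and 3200 TPM at 0 h. No listed lymphocyte or NK gene of 10 had a row. The median gene's log2 difference between LPS and mock was -0.05 at 1 h, -0.16 at 2 h and -0.46 at 4 h. It was -0.44 at 6 h, -0.44 at 9 h and -0.39 at 12 h. A shift of the TPM scale and a fall of most listed RNAs cannot be told apart in these values. Values after rescaling to equal median ratios are therefore given where they change a call.

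A few of the promoters are shown, because they hold features that these genes share. RefSeq windows (GRCm38.p6) of 300 bases, from 250 before to 50 after each start, were found for 7 of the 7 measured genes. Among 21 pairs of these windows the longest run of shared bases had a median length of 9, and the Xaf1 and Casp8 windows, both of genes that rose late, shared 12, which capitals mark in the lines for Xaf1 (chr11:72301379-72301678, plus strand) and Casp8 (chr1:58802252-58802551, plus strand).
Xaf1: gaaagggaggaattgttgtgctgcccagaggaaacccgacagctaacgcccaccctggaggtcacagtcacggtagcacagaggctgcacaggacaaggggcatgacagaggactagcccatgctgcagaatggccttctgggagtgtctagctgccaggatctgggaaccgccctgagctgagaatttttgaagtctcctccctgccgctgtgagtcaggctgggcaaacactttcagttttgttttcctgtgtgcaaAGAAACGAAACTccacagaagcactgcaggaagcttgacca
Casp8: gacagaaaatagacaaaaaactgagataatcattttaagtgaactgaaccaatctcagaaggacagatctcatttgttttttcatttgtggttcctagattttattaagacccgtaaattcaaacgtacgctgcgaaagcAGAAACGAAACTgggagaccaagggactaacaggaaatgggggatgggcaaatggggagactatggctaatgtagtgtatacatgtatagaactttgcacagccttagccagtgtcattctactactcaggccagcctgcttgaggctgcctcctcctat
The run AGAAACGAAACT covers bases 260 to 271 of the Xaf1 window and 141 to 152 of the Casp8 window. It occurs, on either strand, in 6 of 32851 RefSeq mouse windows (0.0183%), those of Casp8, Ddx58, Fyco1, Helz2, Oas3 and Xaf1. It was picked out after the sequences and the expression values had been read. The one other pair with 12 shared bases was Bid and Bax, whose GC-rich run CAGGGGCGGGGC occurs in 142 windows (0.432%).

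The windows of Casp1 (chr9:5298267-5298566, plus strand) and Pycard (chr7:127993818-127994117, minus strand), partners in the inflammasome whose RNAs moved in opposite directions, both hold few CpG dinucleotides, marked by capitals.
Casp1: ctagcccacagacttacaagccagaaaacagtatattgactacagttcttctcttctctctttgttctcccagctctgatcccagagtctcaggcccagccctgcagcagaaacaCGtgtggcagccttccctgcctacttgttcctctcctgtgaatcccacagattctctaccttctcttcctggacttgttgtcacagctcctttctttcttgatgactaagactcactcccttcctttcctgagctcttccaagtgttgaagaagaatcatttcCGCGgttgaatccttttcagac
Pycard: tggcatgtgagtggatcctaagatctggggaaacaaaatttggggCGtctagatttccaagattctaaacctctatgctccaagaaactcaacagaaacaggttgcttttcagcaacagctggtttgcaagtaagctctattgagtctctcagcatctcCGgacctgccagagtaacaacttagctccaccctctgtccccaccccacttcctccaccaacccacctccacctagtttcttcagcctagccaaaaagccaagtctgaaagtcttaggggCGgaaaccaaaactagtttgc
Each has 3 CpG and a GC content of 48.0%, against medians of 7 CpG and 52.7% over all windows; 31.4% of all windows have as few CpG. Casp8 has 5 CpG, Xaf1 6, Casp6 16, Bax 19 and Bid 22. The core of the interferon-stimulated response element (TTTC, any 2 bases, TTTC; 3.44% of all windows), the gamma-activated site TTCNNNGAA (8.30%) and the kappaB motif (4.51%), each searched on both strands, had no match in any of the 7 windows. That says only that these letters are absent from these windows. The run shared by the Xaf1 and Casp8 windows, read on the other strand, holds both fixed parts of the response element core with fewer bases between them. The search required exactly 2 bases there, so it could not count that run. Whether the run acts as such an element was not tested.

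In resting cells at 0 h, Bax and Pycard were the most abundant of the 7 RNAs and Xaf1 the least. Bax averaged 342 ± 87.1 TPM and Pycard 254 ± 88.2 TPM (SD, n = 2 each), ranks 433 and 566 of 3147 genes. Casp1 averaged 77.8 ± 0.853 TPM and Casp8 71.6 ± 27.0 TPM (SD, n = 2 each), close to the median gene at 76.9 TPM. Casp6 averaged 37.6 ± 9.25 TPM, Bid 32.5 ± 9.54 TPM and Xaf1 22.1 ± 3.39 TPM (SD, n = 2 each). Neighbours in this order overlapped between libraries for Bax and Pycard, for Casp1 and Casp8, and for Casp6 and Bid; the steps from Pycard to Casp1, from Casp8 to Casp6 and from Bid to Xaf1 did not. After 12 h of LPS the order was different: Xaf1 led with 566 ± 9.55 TPM, then came Casp1 with 288 ± 29.9 TPM, Bax with 263 ± 108 TPM, Casp8 with 93.1 ± 19.1 TPM, Pycard with 81.2 ± 3.11 TPM, Bid with 25.3 ± 3.29 TPM and Casp6 with 16.3 ± 0.282 TPM. Libraries of neighbours overlapped for Casp1 and Bax and for Casp8 and Pycard, and not for the others. In mock cells at 12 h, Pycard (305 ± 55.5 TPM) and Bax (286 ± 104 TPM), which overlapped, were still highest, and Xaf1 stood at 36.6 ± 6.67 TPM.

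**Figure D1:**
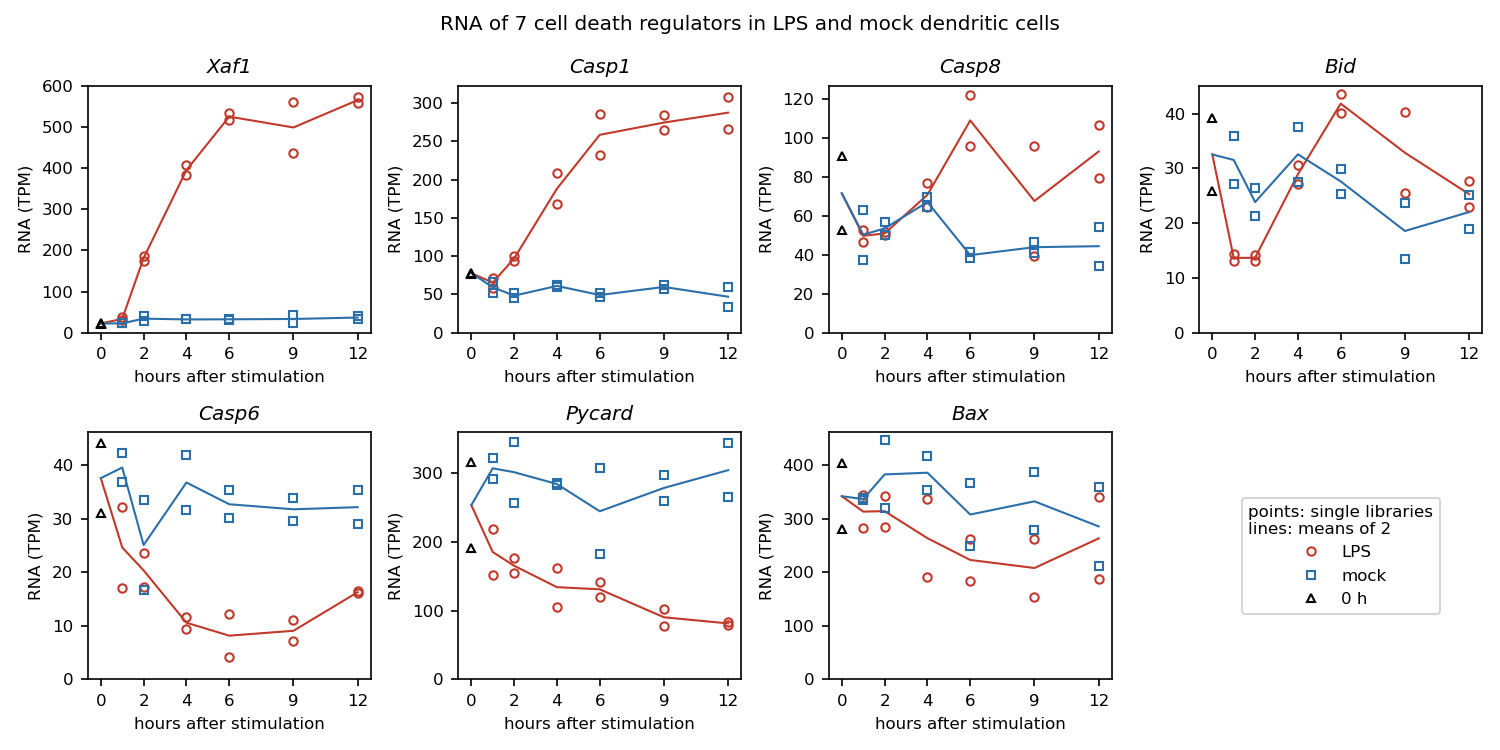
RNA level in TPM (vertical axis, linear, a scale of its own for each gene) against hours after stimulation for 7 genes; circles are single LPS libraries, squares single mock libraries, triangles the 0 h libraries shared by both arms, and lines join the means of 2. Xaf1 and Casp1 climb under LPS to 566 and 288 TPM at 12 h, Pycard and Casp6 decline, and Bid dips at 1 and 2 h. Bax libraries of the same group lie apart in most groups, though not in mock cells at 1 h (334 and 339 TPM).

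The comparison of LPS with mock cells asks how stimulation changed each gene at each time. Differences are on the scale of log2(TPM + 1), which understates the change of low genes, and were tested with limma across all 3147 genes, with 13 group means and Benjamini-Hochberg adjusted p under 0.05 as the threshold. Values are given for replicate 1 and then replicate 2. Between bulk libraries, fewer cells of a type that carries a transcript and less of the transcript per cell cannot be told apart. The late effect is the mean of the LPS minus mock differences at 6, 9 and 12 h: 6 of the 7 genes passed for it, with 4 that rose and 2 that fell, against 63.2% of all genes (15.5% rose, 47.7% fell) and a median of -0.43 over all genes. With the libraries rescaled to equal median ratios, all genes split into 825 that rose and 816 that fell, against 487 and 1502 on the deposited scale, and the same 6 of the 7 genes passed in the same directions. Over the 6 times together (F test), 6 of the 7 passed, all but Bax, against 57.2% of all genes.

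Xaf1 rose most. At 1 h it had 29.7 and 37.1 TPM in LPS cells, against 22.6 and 22.3 TPM in mock cells, and at 2 h 175 and 188 TPM in LPS cells, against 39.5 and 28.5 TPM in mock cells. At 4 h it had 383 and 409 TPM in LPS cells, against 32.0 and 32.0 TPM in mock cells, and at 6 h 535 and 517 TPM in LPS cells, against 34.0 and 30.7 TPM in mock cells. Both LPS libraries thus stood above both mock libraries at each time, and the gap opened between 1 and 2 h. At 9 h Xaf1 had 561 and 438 TPM in LPS cells, against 24.5 and 41.8 TPM in mock cells, and at 12 h 573 and 559 TPM in LPS cells, against 31.9 and 41.4 TPM in mock cells. LPS libraries above mock libraries at all 6 times, with no overlap, occurred for 5.12% of all genes; the libraries of the 2 arms did not overlap, in either direction, for 48.7% of genes at 1 h, 54.2% at 2 h, 73.7% at 4 h, 69.1% at 6 h, 63.5% at 9 h and 68.4% at 12 h. The difference was 0.54 ± 0.23 at 1 h (SE; adjusted p = 0.220), 2.40 ± 0.23 at 2 h (adjusted p = 1.5e-06), 3.59 ± 0.23 at 4 h and 3.98 ± 0.23 at 6 h. Averaged over the late times it was 3.94 ± 0.13 (adjusted p = 4.02e-13), the 30th largest rise of 3147, and leaving out any 1 library kept it between 3.82 and 4.06.

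Casp1, the enzyme of the inflammasome, rose more slowly. At 1 h it had 58.9 and 71.8 TPM in LPS cells, against 52.2 and 66.4 TPM in mock cells, ranges that overlapped. At 2 h it had 93.5 and 100 TPM in LPS cells, against 51.9 and 44.6 TPM in mock cells, and at 4 h 168 and 208 TPM in LPS cells, against 59.8 and 62.3 TPM in mock cells. From 2 h on, every LPS library was above both mock libraries of its time. At 6 h Casp1 had 232 and 286 TPM in LPS cells, against 46.2 and 52.0 TPM in mock cells, and at 9 h 265 and 285 TPM in LPS cells, against 57.2 and 62.2 TPM in mock cells. At 12 h it had 266 and 309 TPM in LPS cells, against 34.0 and 59.8 TPM in mock cells. Its rise passed at each time from 2 h on: 0.99 ± 0.23 at 2 h (SE; adjusted p = 0.00603), 1.60 ± 0.23 at 4 h (adjusted p = 3.84e-05), 2.37 ± 0.23 at 6 h, 2.18 ± 0.23 at 9 h and 2.64 ± 0.23 at 12 h (adjusted p = 1.38e-07). The call at 2 h was lost without replicate 2 of mock or of LPS at 2 h (adjusted p between 0.0503 and 0.0661). Its late effect was 2.40 ± 0.13 (adjusted p = 1.21e-10), between 2.26 and 2.53 with any 1 library left out.

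Pycard, which recruits Casp1 to the sensor, fell while Casp1 rose. It had 219 and 152 TPM in LPS cells at 1 h, against 323 and 292 TPM in mock cells, and 176 and 154 TPM in LPS cells at 2 h, against 346 and 257 TPM in mock cells. At 4 h it had 163 and 105 TPM in LPS cells, against 284 and 285 TPM in mock cells, and at 6 h 120 and 142 TPM in LPS cells, against 308 and 182 TPM in mock cells. Both LPS libraries were below both mock libraries at all 6 times, a pattern held by 10.3% of all genes. At 9 h Pycard had 102 and 77.7 TPM in LPS cells, against 298 and 259 TPM in mock cells, and at 12 h 83.4 and 79.0 TPM in LPS cells, against 344 and 265 TPM in mock cells. The fall passed at 4 h (-1.11 ± 0.30, SE; adjusted p = 0.00689), 6 h (-0.85 ± 0.30; adjusted p = 0.0293), 9 h (-1.63 ± 0.30; adjusted p = 0.000385) and 12 h (-1.88 ± 0.30; adjusted p = 0.000109). With median-ratio rescaling the 4 h and 6 h calls were lost (-0.66 at 4 h and -0.43 at 6 h); leaving out LPS replicate 2 lost the call at 4 h (adjusted p = 0.105), and leaving out mock replicate 1, LPS replicate 1 or LPS replicate 2 lost that at 6 h (adjusted p between 0.0591 and 0.284). Averaged over 6, 9 and 12 h the fall was -1.45 ± 0.17 (adjusted p = 1.42e-06), between -1.58 and -1.33 with any 1 library left out and -1.05 after rescaling.

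In LPS cells Pycard had its lowest values at 9 and 12 h. The mean LPS effect at 9 and 12 h minus that at 4 and 6 h was -0.77 ± 0.30 for Pycard (SE; unadjusted p = 0.0186, adjusted p = 0.173). None of the 7 genes passed for this difference, and 3.97% of all genes did. Under an unadjusted p of 0.05 in limma were 1 of the 7 genes and 538 of all 3147. The summed neutrophil and granulocyte precursor genes were 4740 and 2252 TPM in LPS cells at 4 h, against 11097 and 3039 TPM in mock cells. At 6 h they were 3043 and 1997 TPM in LPS cells, against 5707 and 2624 TPM in mock cells. The LPS and mock libraries overlapped at these times, but the LPS libraries lay below the mock libraries at 9 h (2333 and 1622 TPM in LPS cells, against 7193 and 2492 TPM in mock cells) and at 12 h (1804 and 1165 TPM in LPS cells, against 3785 and 2593 TPM in mock cells). At 0 h most of this sum was S100a8 (1135 to 1579 TPM) and S100a9 (1422 to 1806 TPM). Of the listed genes, only Lcn2 had both ends of its range higher in LPS (121 to 883 TPM) than in mock libraries (53.1 to 427 TPM). The part of these listed genes in the values of Pycard and Casp6 was not tested.

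**Figure D2:**
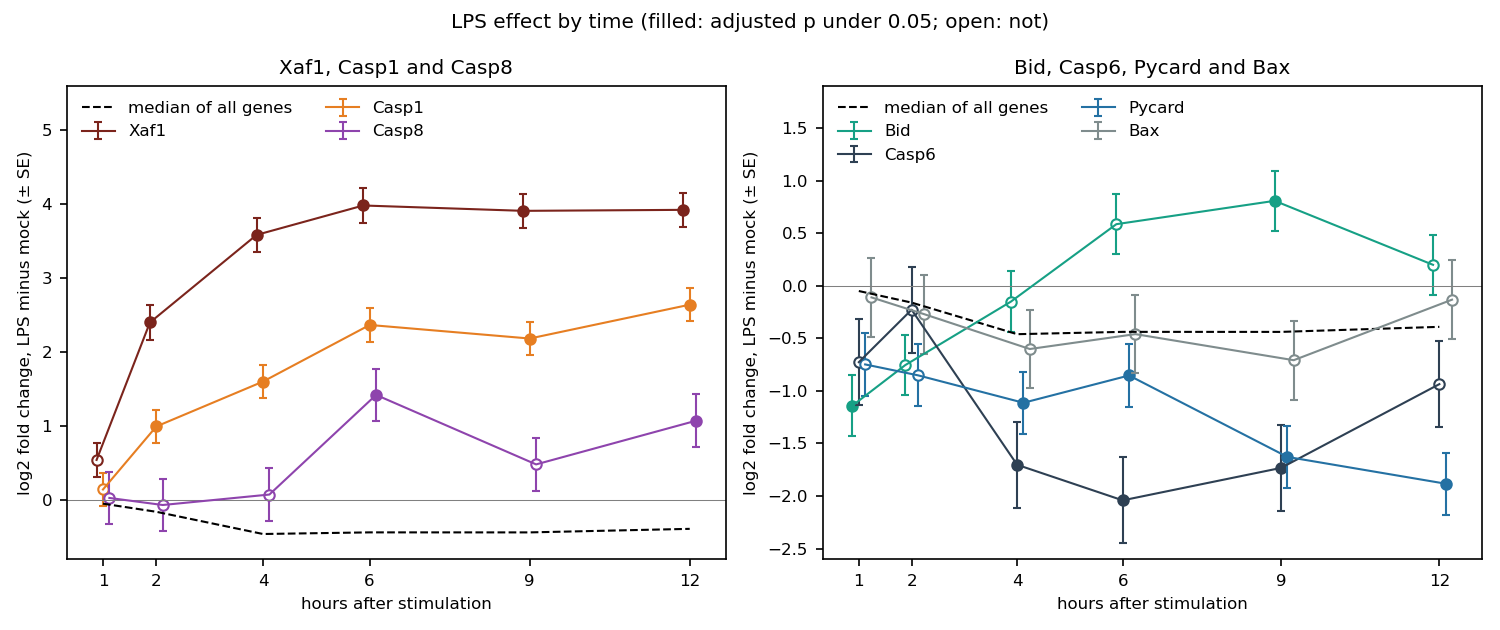
Log2 difference between LPS and mock cells on the log2(TPM + 1) scale (vertical axis, ± SE) against hours after stimulation, with filled points where the adjusted p was under 0.05 and a dashed line for the median of all 3147 genes. Xaf1 and Casp1 reach 3.92 and 2.64 at 12 h, Bid crosses zero between 4 and 6 h on the deposited scale (between 2 and 4 h after median-ratio rescaling, where the 4 h value is 0.29), and Bax stays within 0.30 of the dashed line.

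Casp6, the effector caspase, fell from 4 h. It had 32.3 and 17.0 TPM in LPS cells at 1 h, against 42.3 and 36.9 TPM in mock cells, and 23.5 and 17.2 TPM in LPS cells at 2 h, against 33.5 and 16.7 TPM in mock cells. At 4 h it had 11.7 and 9.42 TPM in LPS cells, against 42.0 and 31.6 TPM in mock cells, and at 6 h 12.2 and 4.06 TPM in LPS cells, against 30.1 and 35.3 TPM in mock cells. The groups overlapped at 2 h and at no other time. At 9 h Casp6 had 11.0 and 7.05 TPM in LPS cells, against 33.9 and 29.6 TPM in mock cells, and at 12 h 16.5 and 16.1 TPM in LPS cells, against 35.4 and 29.0 TPM in mock cells. The fall passed at 4 h (-1.70 ± 0.41, SE; adjusted p = 0.00348), 6 h (-2.04 ± 0.41; adjusted p = 0.00074) and 9 h (-1.73 ± 0.41; adjusted p = 0.0030), and was -0.94 ± 0.41 at 12 h (adjusted p = 0.0831). Quantile normalization ended the calls at 4 h (-0.95; adjusted p = 0.0672) and 9 h (-0.99; adjusted p = 0.0505). The late effect was -1.57 ± 0.24 (adjusted p = 2.12e-05), -1.19 after median-ratio rescaling and -0.90 after quantile normalization, and passed in each.

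Casp8, the initiator caspase of the death receptor pathway, showed no separation up to 4 h. It had 52.9 and 46.5 TPM in LPS cells at 1 h, against 37.5 and 63.1 TPM in mock cells, 51.8 and 50.1 TPM in LPS cells at 2 h, against 50.4 and 56.7 TPM in mock cells, and 76.9 and 64.7 TPM in LPS cells at 4 h, against 64.5 and 69.7 TPM in mock cells. At 6 h it had 95.7 and 122 TPM in LPS cells, against 41.2 and 38.4 TPM in mock cells. At 9 h it had 95.9 and 39.4 TPM in LPS cells, against 41.2 and 46.6 TPM in mock cells, and at 12 h 107 and 79.6 TPM in LPS cells, against 34.3 and 54.5 TPM in mock cells. One LPS library at 9 h, replicate 2, was below both mock libraries, while at 6 and 12 h both LPS libraries were above. Casp8 rose by 1.42 ± 0.35 at 6 h (SE; adjusted p = 0.00416) and 1.07 ± 0.35 at 12 h (adjusted p = 0.0257). The value at 9 h was 0.48 ± 0.35 (adjusted p = 0.301), 1.11 without LPS replicate 2 (adjusted p = 0.0226) and -0.15 without LPS replicate 1. The 12 h call was lost without replicate 1 of mock or of LPS (adjusted p between 0.155 and 0.220), and the F test over the 6 times (adjusted p = 0.0145) was lost without LPS replicate 2 at 6 h (adjusted p = 0.0617). The late effect was 0.99 ± 0.20 (adjusted p = 0.000482), between 0.78 and 1.2 with any 1 library left out.

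Bid, the link between Casp8 and the mitochondrion, fell first and rose later. It had 14.3 and 13.02 TPM in LPS cells at 1 h, against 27.2 and 35.9 TPM in mock cells, and 13.1 and 14.3 TPM in LPS cells at 2 h, against 26.3 and 21.3 TPM in mock cells. At 4 h it had 27.2 and 30.7 TPM in LPS cells, against 27.6 and 37.5 TPM in mock cells. The LPS libraries lay below the mock libraries at 1 and 2 h, overlapped them at 4 and 12 h, and lay above them at 6 and 9 h. At 6 h Bid had 40.1 and 43.5 TPM in LPS cells, against 30.0 and 25.2 TPM in mock cells, at 9 h 40.2 and 25.5 TPM in LPS cells, against 23.7 and 13.4 TPM in mock cells, and at 12 h 27.6 and 23.0 TPM in LPS cells, against 25.1 and 18.9 TPM in mock cells. Bid was the only one of the 7 genes to pass at 1 h, when 4.07% of all genes passed (3.27% rose, 0.794% fell): it fell by 1.14 ± 0.29 (SE; adjusted p = 0.0323), the 32nd deepest fall. That call was lost in a fit to the 1 h groups alone (adjusted p = 0.211) and without mock replicate 1, mock replicate 2 or LPS replicate 2 (adjusted p between 0.0800 and 0.241). At 9 h Bid rose by 0.81 ± 0.29 (adjusted p = 0.0343), a call lost in a fit to the 9 h groups alone (adjusted p = 0.224) and without mock replicate 2 or LPS replicate 1 (adjusted p between 0.270 and 0.342). At 6 h its difference was 0.59 ± 0.29 (adjusted p = 0.116), and 1.00 after median-ratio rescaling (adjusted p = 0.0094). Its late effect was 0.53 ± 0.17 (adjusted p = 0.0106), between 0.40 and 0.66 with any 1 library left out. In the later mouse annotation used here Bid overlaps Bcl2l13 on the opposite strand over 913 bases. The libraries kept strand, and how the authors' counting used it is not given in the sources used here. On the same strand Bid overlaps Gm44260 over 2094 bases and Casp8 overlaps Gm37760 over 3841 bases. Neither Gm44260 nor Gm37760 has an RNA row, and whether reads were split there is unknown.

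Bax, the pore-forming protein downstream of Bid, did not pass at any time. Its lowest, median and highest values were 153, 272 and 344 TPM over the 12 LPS libraries, and 212, 347 and 446 TPM over the 12 mock libraries. At 4 h it had 337 and 190 TPM in LPS cells, against 418 and 354 TPM in mock cells, and at 9 h 263 and 153 TPM in LPS cells, against 387 and 278 TPM in mock cells. Those were the only times without overlap, and replicate 2 was the lower library in 12 of 13 groups. Its late effect was -0.43 ± 0.22 (SE; adjusted p = 0.0898), the same to 2 decimals as the median of all genes, and -0.03 after median-ratio rescaling. It passed without LPS replicate 1 at 9 h, mock replicate 2 at 12 h or LPS replicate 1 at 12 h (adjusted p between 0.0325 and 0.0432). Bax overlaps the predicted gene Gm45808 on the same strand in the later annotation. Gm45808 has no RNA row, and whether reads were split between them is unknown.

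Counted by time, the 7 genes gave 2 calls at 2 h, the rises of Casp1 and Xaf1, when 14.4% of all genes passed (6.39% rose, 8.04% fell). At 4 h there were 4, with Casp1 and Xaf1 up and Casp6 and Pycard down, against 37.9% of all genes (8.74% rose, 29.2% fell). At 6 h there were 5, with Casp1, Casp8 and Xaf1 up and Casp6 and Pycard down, against 41.2% (11.2% rose, 30.0% fell). At 9 h there were also 5, with Casp1, Bid and Xaf1 up and Casp6 and Pycard down, against 40.1% (10.1% rose, 30.0% fell). At 12 h there were 4, with Casp1, Casp8 and Xaf1 up and Pycard down, against 36.8% (10.0% rose, 26.8% fell). From 4 h on, rises numbered 2 or 3 of the 7 genes and falls 1 or 2. In mock cells alone, the mean of 6, 9 and 12 h minus 0 h passed for none of the 7 genes and for 0.0% of all genes with limma; 4 of the 7 were under an unadjusted p of 0.05, as were 89 of all 3147. Those 4 were Casp8 (-0.69 ± 0.29), Casp1 (-0.60 ± 0.18), Bid (-0.51 ± 0.24) and Xaf1 (0.59 ± 0.19, SE). At 0 h Casp8 had 90.7 and 52.5 TPM, and Bid had 39.3 and 25.8 TPM. The LPS libraries of both genes lay above these values at 6 h and overlapped them at 9 and 12 h.

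For most of the 7 genes the LPS effect differed between late and early times. The LPS effect over 6, 9 and 12 h minus that over 1 and 2 h passed for 5 of the 7 genes, against 30.4% of all genes (8.17% rose, 22.2% fell), whose median was -0.32. It was 2.47 ± 0.21 for Xaf1 (SE; adjusted p = 3.86e-07), 1.83 ± 0.21 for Casp1 (adjusted p = 6.14e-06) and 1.48 ± 0.26 for Bid (adjusted p = 0.00048). Casp8 gave 1.01 ± 0.32 (adjusted p = 0.0259), lost without any one of mock or LPS replicate 2 at 1 h, mock or LPS replicate 2 at 2 h, and mock replicate 1 at 12 h (adjusted p between 0.0520 and 0.0828). Casp6 gave -1.09 ± 0.37 (adjusted p = 0.0351), and this call was fragile: it ended with median-ratio rescaling (-0.79; adjusted p = 0.139), after quantile normalization (-0.55; adjusted p = 0.280), in a fit to the compared groups alone (adjusted p = 0.0515) and in 10 of the 20 fits with 1 library left out (adjusted p between 0.0543 and 0.107). Those 10 were mock replicates 1 and 2 and LPS replicate 1 at 1 h, mock replicate 2 and LPS replicate 1 at 2 h, replicate 2 of mock and of LPS at 6 h, mock replicate 1 and LPS replicate 2 at 9 h, and mock replicate 1 at 12 h. Pycard gave -0.65 ± 0.27 (adjusted p = 0.0772), and passed without LPS replicate 2 at 1 h or mock replicate 2 at 6 h (adjusted p between 0.0332 and 0.0490). Bax gave -0.24 ± 0.34 (adjusted p = 0.623).

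Other genes of the same pathways were taken from 6 lists of 103 names, of which 34 had an RNA row. Of these, 23 passed for the late effect, against 63.2% of all genes: 13 rose and 10 fell (15.5% of all genes rose and 47.7% fell), with a median of -0.02, against -0.43 for all genes. The 5 inflammasome and pyroptosis genes with a row all rose for the late effect, as Casp1 did and Pycard did not. Il1b, the precursor that Casp1 cleaves, rose by 6.04 ± 0.34 (SE), with 7473 and 5019 TPM in LPS cells at 12 h, against 108 and 64.2 TPM in mock cells. The sensor Nlrp3 rose by 1.14 ± 0.13, with 118 and 92.4 TPM in LPS cells at 12 h, against 44.3 and 52.2 TPM in mock cells. Its difference was larger early, 2.45 ± 0.23 at 1 h (adjusted p = 3.11e-06) and 2.24 ± 0.23 at 2 h (adjusted p = 3.09e-06), and its late effect minus the early one was -1.21 ± 0.21 (adjusted p = 0.00037). Gsdmd, gasdermin D, rose by 0.85 ± 0.19, Nek7, which binds Nlrp3, by 0.74 ± 0.13, and Naip2, a sensor of bacterial secretion systems, by 0.46 ± 0.14. Naip2 passed at no single time and not in the F test over the 6 times (adjusted p = 0.0684).

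Among 9 genes of death receptors, adaptors and necroptosis, which act around Casp8, 3 rose and 2 fell for the late effect. Over all genes 15.5% rose and 47.7% fell, the share to set beside this count and those below. Daxx, a nuclear protein that binds Fas, rose by 3.32 ± 0.10 (SE), with 264 and 267 TPM in LPS cells at 12 h, against 26.9 and 28.6 TPM in mock cells. Mlkl, the pore former of necroptosis, rose by 2.44 ± 0.14, and the receptor Fas by 1.10 ± 0.14. Ripk3, the kinase that phosphorylates Mlkl, fell by 1.2 ± 0.25, with 27.7 and 21.6 TPM in LPS cells at 12 h, against 55.0 and 40.8 TPM in mock cells, and Pea15a, which binds Fadd, fell by 1.18 ± 0.09. Of 12 apoptosome and mitochondrial genes, 3 rose (Htra2 by 1.30 ± 0.16, Cycs by 0.55 ± 0.10 and Apaf1 by 0.40 ± 0.15) and 6 fell, among them Endog (-1.73 ± 0.43), Parp1 (-1.72 ± 0.15) and Aifm1 (-0.97 ± 0.17). Casp9, the initiator on the apoptosome, fell by 0.67 ± 0.15, a call that ended with median-ratio rescaling (-0.28) and quantile normalization. Its difference was deeper earlier, -1.69 ± 0.27 at 2 h (adjusted p = 0.00029) and -1.79 ± 0.27 at 4 h (adjusted p = 6.60e-05). The 2 measured Bcl2 relatives of Bid and Bax did not pass for the late effect: Bcl2l1 gave 0.24 ± 0.14 and Bcl2l13 gave -0.25 ± 0.37. Bcl2l1, an inhibitor of apoptosis, rose by 1.07 ± 0.24 at 2 h (adjusted p = 0.0055) and passed the F test over the 6 times (adjusted p = 0.0053). Of 5 inhibitors of apoptosis, Xiap, the protein Xaf1 is named for, rose by 0.44 ± 0.15 and Birc6 by 0.83 ± 0.18, and Api5 fell by 0.36 ± 0.12 on the deposited scale only (0.05 after median-ratio rescaling).

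**Figure D3:**
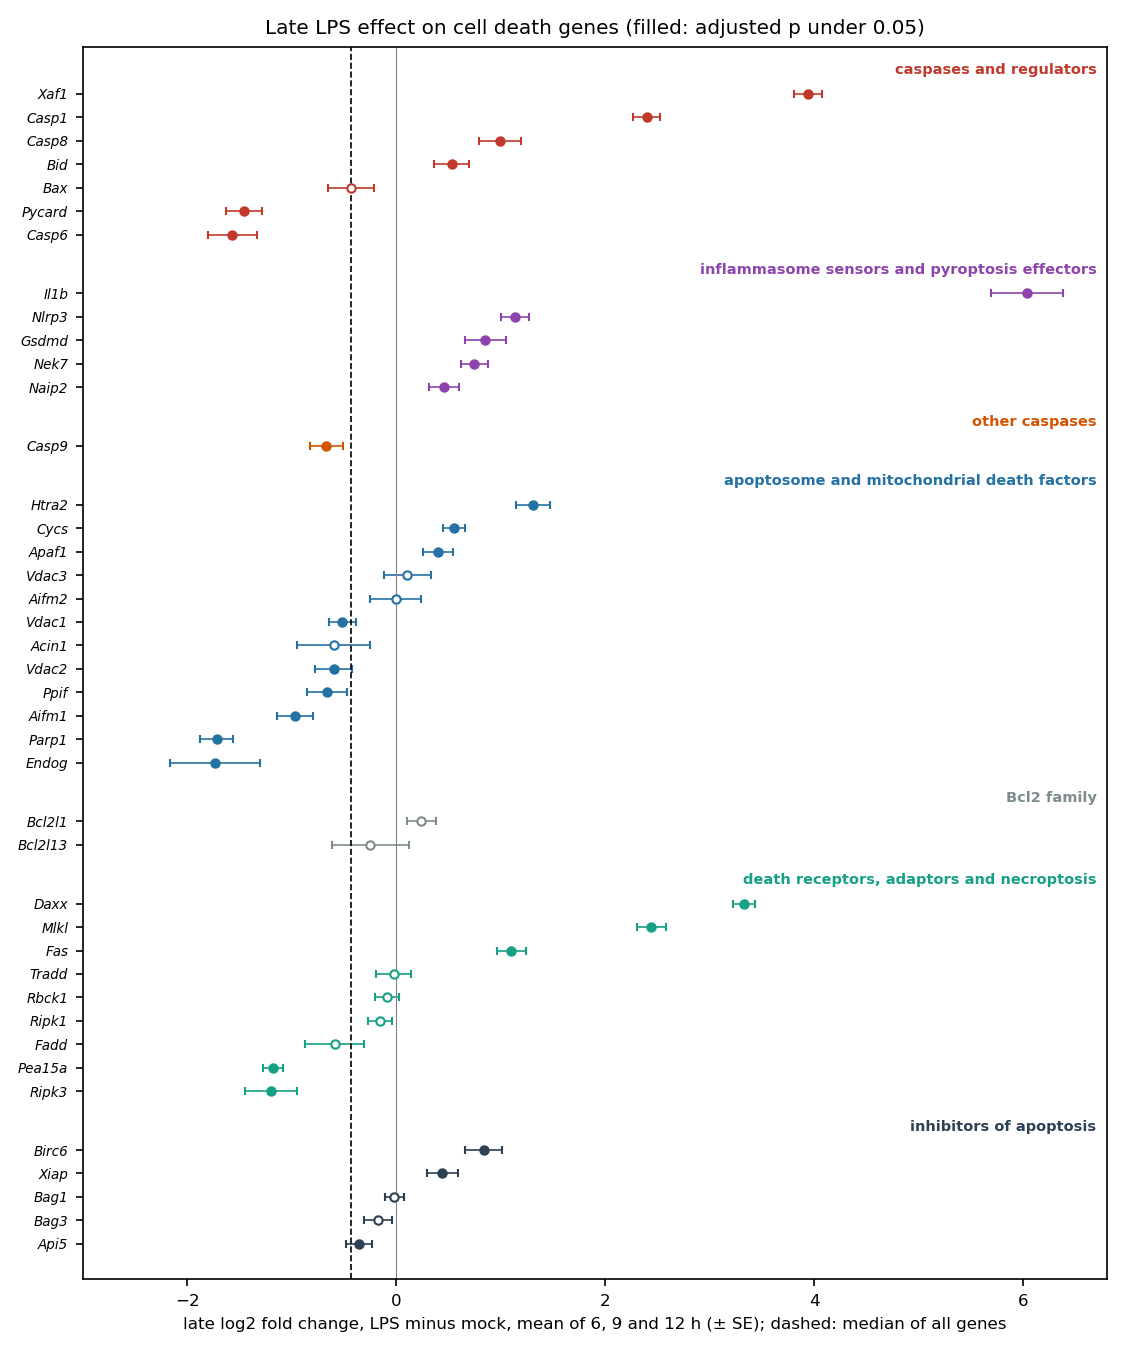
Late log2 difference between LPS and mock cells (mean of 6, 9 and 12 h, horizontal axis, ± SE) for the 7 genes and 34 genes of 6 pathway lists, with filled points where the adjusted p was under 0.05 and a dashed line at the median of all genes, -0.43. Xaf1 at 3.94 and Casp1 at 2.40 stand with Il1b, Daxx and Mlkl at the right, and Pycard and Casp6 with Parp1, Endog, Ripk3 and Pea15a at the left.

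The genes whose course was most like each of the 7 were found by Pearson correlation of mean log2(TPM + 1) over the 13 groups, given as a description because groups share the LPS response and the scale. For Xaf1 the nearest rows were Oas1g;Oas1a (r = 0.996), Dhx58;D11lgp2 (r = 0.991) and Pyhin1 (r = 0.990), and for Casp1 they were Lgals9 (r = 0.990), Car13 (r = 0.986) and Atl3 (r = 0.978). For Pycard they were Actl6a (r = 0.987), Alox5ap (r = 0.981) and Rpl18 (r = 0.980), and for Casp6 Gga2;mKIAA1080 (r = 0.978), Ppid (r = 0.976) and Enoph1 (r = 0.973). Bax was nearest to Psmd3 (r = 0.955), Pfn1 (r = 0.951) and Tufm (r = 0.949). Casp8 and Bid had looser neighbours: BC013712 (r = 0.854) and Plod3 (r = 0.845) were among the nearest for Casp8, and Gosr1 (r = 0.867), Rgs14 (r = 0.832) and Ociad1 (r = 0.823) were the nearest for Bid.

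The footprint libraries ask how densely ribosomes occupied these messages in resting cells, relative to their RNA at 0 h. Pycard had 396 and 408 TPM of footprints, against 316 and 191 TPM of RNA. Bax had 129 and 120 TPM of footprints, against 403 and 280 TPM of RNA. Pycard footprints were above both RNA libraries and Bax footprints below both, so that the most abundant RNA of the 5 was not the most abundant footprint. Casp8 had 56.1 and 63.8 TPM of footprints, against 90.7 and 52.5 TPM of RNA. Casp1 had 40.6 and 49.6 TPM of footprints, against 77.2 and 78.4 TPM of RNA, and Casp6 27.1 and 22.0 TPM of footprints, against 44.2 and 31.1 TPM of RNA. Only Casp8 overlapped between the assays. The footprint table spreads the same total over more genes (6250, against 3147), so the scales differ by an offset. Centring moved the median log2 difference over the shared genes from -0.73 to 0.12, so it did not remove the offset fully.

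Footprint minus RNA differences were tested with limma over the 2920 genes in both tables, each library centred on its median gene. Pycard was the 1 of 5 genes to pass (1.56 ± 0.29, SE; adjusted p = 0.0175), against 27.3% of all genes. The difference was 0.65 ± 0.29 for Casp8 (adjusted p = 0.133), 0.27 ± 0.26 for Casp6 (adjusted p = 0.445), 0.07 ± 0.23 for Casp1 (adjusted p = 0.822) and -0.58 ± 0.26 for Bax (adjusted p = 0.134). The Pycard call was lost without either footprint library (adjusted p between 0.0951 and 0.101) and without centring (0.71; adjusted p = 0.111). The 2 assays differ in library preparation and upstream tools as well as in what they measure, and these cannot be told apart. The other calls moved with the RNA libraries at 0 h: without RNA replicate 1, 4 of the 5 genes passed, all but Casp1, and Bax passed also without RNA replicate 2. Over all genes 2240 of 2920 passed without RNA replicate 1 and 1762 without RNA replicate 2, against 798 with both, so nothing about these 5 genes is read from those counts.

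**Figure D4:**
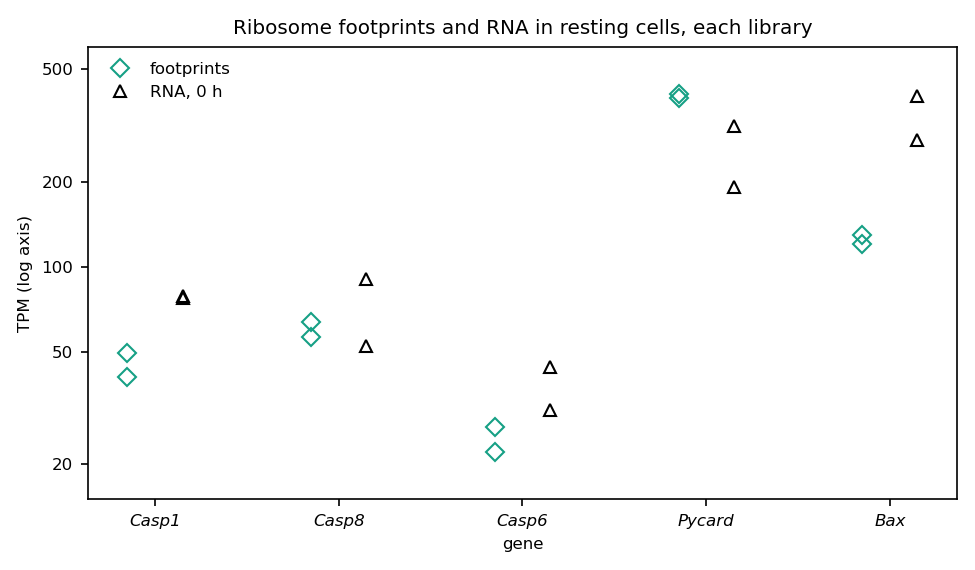
TPM on a logarithmic axis for 5 genes in resting cells; diamonds are the 2 footprint libraries and triangles the 2 RNA libraries at 0 h. Pycard has the highest footprint values, 396 and 408 TPM, above its RNA, and Bax footprints, 129 and 120 TPM, lie below its RNA, before centring.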

How the data were processed

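RNA was measured in 26 libraries and ribosome footprints in 2. Per the submitters' processing notes, reads were handled with Bowtie 0.12.7 and RSEM 1.2.3 (Bowtie2 and TopHat2 are also named) on mm9; which table each tool made is not given in the sources used here. The deposited TPM columns of both tables sum to 1000000, so depth is unknown and no counting interval can be given; the 2 columns at 0 h repeated under both arms were used once. Rows carry gene names without coordinates, and a row with several names was matched by any of them.

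Groups came from the labels. A pseudocount of 1 TPM was added, genes needed at least 1 TPM in at least 2 libraries (all 3147 passed), and limma 3.58.1 (R 4.3.3) with a mean-variance trend was fitted to 13 group means without a replicate term, leaving 13 residual degrees of freedom; p-values were Benjamini-Hochberg adjusted over all genes. The fit was tested on simulated data. Alternatives were the pseudocount, the filter, median-ratio and quantile rescaling, a replicate block, a fit to the compared groups alone and each library left out; rescaling together with the block was added after seeing the data. Named genes were the 7 measured ones, up to 3 called genes with the largest rise and up to 3 with the largest fall in each pathway list, Il1b and Gsdmd, and the 3 nearest rows by correlation; Nek7, Naip2, Bcl2l1, Bcl2l13 and the genes of the closing section were named after their values were seen. The genes and lists were chosen with earlier results of these data known. Promoter coordinates belong to GRCm38.p6, not to the build of the tables. Some items are not reported here.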

Additional observations from a re-analysis of the deposited data

Results flagged for a closer look

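For 5 of the 7 genes the LPS effect at 6, 9 and 12 h differed from that at 1 and 2 h. The difference itself was tested in limma, and 30.4% of all genes passed (8.17% rose, 22.2% fell). The late effect minus the early effect was 2.47 for Xaf1, 1.83 for Casp1, 1.48 for Bid, 1.01 for Casp8 and -1.09 for Casp6 on the log2 scale. Bid is the gene among them whose direction turned, below mock cells at 1 and 2 h and above them at 6 and 9 h. The Casp6 and Casp8 differences depended on single libraries, as given above. No explanation of these differences was tested.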

How the results depend on the processing

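Among the 7 genes, 1 passed at 1 h; 2 did with a replicate block, alone or with median-ratio rescaling, none with the compared groups alone, and 0 to 1 with a library left out. The counts over all genes moved too, to 544 with the block and 21 with the compared groups alone, against 128. At 2 h 2 passed; 4 did with the block, 1 with the compared groups alone, and 1 to 2 with a library left out. Over all genes 871 passed with the block and 231 with the compared groups alone, against 454. For the course after 6 h none passed, and 1, Pycard, with the block, alone or with rescaling. Over all genes 125 passed for that course, 423 with the block and 438 with the block and rescaling. Late minus early passed for 956 of all genes. For late minus early 5 passed, and 3 to 5 with a library left out. For footprints 1 of 5 passed, Pycard, and 0 to 4 with a library left out; without centring 2 passed, Casp1 (adjusted p = 0.0369) and Bax (adjusted p = 0.0096), and not Pycard. Over all genes 798 of 2920 passed, 1394 without centring, and 247 to 2240 with a library left out. The counts at 4, 6, 9 and 12 h, of the late effect, of the F test and of the mock course stayed within 1.5 times under every alternative run.

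Signs turned for differences that had not passed, except Api5. With median-ratio rescaling, with or without the block, Casp8 at 2 h became 0.077, Bid at 4 h 0.29, Bax at 12 h 0.24, Bax late minus early 0.081 and Api5 late 0.046. With quantile normalization Casp8 at 1 h became -0.046, Casp6 at 2 h 0.069, Casp8 at 2 h 0.068 and Bid at 4 h 0.47. Without centring the footprint difference became -0.78 for Casp1, -0.58 for Casp6 and -0.20 for Casp8. With a library left out the differences ran at 1 h from -0.029 to 0.31 for Casp1, from -0.34 to 0.40 for Casp8 and from -0.26 to 0.033 for Bax, and at 2 h from -0.71 to 0.25 for Casp6 and from -0.15 to 0.016 for Casp8. At 4 h they ran from -0.049 to 0.20 for Casp8 and from -0.37 to 0.064 for Bid, at 9 h from -0.15 to 1.11 for Casp8, at 12 h from -0.56 to 0.30 for Bax, and for Casp1 footprints from -0.040 to 0.18. The cause was not tested.

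The labels do not say what a replicate number shares. Over 78 pairs of groups, same-numbered libraries deviated together with r from 0.05 to 0.83 (median 0.59, 76 over 0.1). With 2 numbers this does not establish pairing. Replicate 2 was the lower library in 12 of 13 groups for Casp6 and for Bax, in 11 for Pycard and in 1 for Casp1. The main fit had no replicate term, so such shifts counted as spread between libraries. With the replicate block Bax passed for the late effect (adjusted p = 0.00136), though not when rescaling was added (-0.03; adjusted p = 0.843). Groups of 2 libraries and an unknown depth limit every value here.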

Other observations

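The 12-base run shared by the Xaf1 and Casp8 windows was held by 6 genes, and 4 of these had an RNA row; all 4 rose late under LPS in limma. Besides Xaf1 (3.94 ± 0.13, SE) and Casp8 (0.99 ± 0.20), these were Ddx58, which encodes the RNA sensor RIG-I (3.25 ± 0.12), and Oas3, an oligoadenylate synthetase (4.56 ± 0.16). Ddx58 had 196 and 203 TPM in LPS cells at 12 h, against 23.2 and 29.9 TPM in mock cells, and Oas3 had 414 and 357 TPM in LPS cells, against 15.5 and 11.0 TPM in mock cells. Of all genes 15.5% rose late. The run was chosen after these values were seen, so the count carries no test, and Fyco1 and Helz2 were not analysed here.

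A further 32 listed cell death genes had a footprint row and no RNA row, with resting footprints between 2.33 and 1250 TPM and a median of 28.05 TPM, against 29.0 TPM over all footprint rows. The anti-apoptotic Bcl2 relatives were high among them: Bcl2a1d had 1052 and 1447 TPM, Bcl2a1b 1051 and 1446 TPM and Bcl2a1a 911 and 1266 TPM, near-identical paralogs whose reads could be split between them, and Mcl1 had 288 and 261 TPM. Bak1, the other pore former beside Bax, had 91.3 and 90.8 TPM of footprints, against 129 and 120 TPM for Bax.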
